A study of Mus musculus with 18 samples.

Results

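The genes described are the collagens other than Col4a1 and Col4a2. They were taken by symbol, as every one made of Col, a number, a and a number that is found in both deposited expression tables. There were 39 of them among the 17761 symbols the tables share. TRIM28 (also called KAP1, encoded by Trim28) is a co-repressor that DNA-bound zinc finger proteins bring to chromatin, and the study compared cells with and without it. Messenger RNA was sequenced from ES3 cells, mouse embryonic stem (ES) cells of strain C57BL/6 grown on gelatin in serum with leukaemia inhibitory factor, and from C57BL/6 mouse embryonic fibroblasts (MEFs). ES3 wild-type cells were cultured for 4 days and ES3 knockout cells were taken 4 days after a Cre recombinase inducible by 4-hydroxytamoxifen (4-OHT) was switched on. For MEFs both times were 5 days. The labels name Cre and 4-OHT for the knockouts only, so loss of TRIM28 and exposure to these agents cannot be told apart. Duplicates were pooled before RNA was extracted, so each of the 4 groups is 1 library and no test between groups could be made.

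Collagens are proteins of the extracellular matrix in which 3 chains wind into a triple helix. Fibrillar collagens line up into the banded fibrils of skin, bone, tendon and cartilage, and network-forming collagens make open sheets or lattices. Fibril-associated collagens with interrupted helices (FACIT) sit on fibrils, transmembrane collagens span the cell surface, and multiplexins lie at basement membranes and release anti-angiogenic fragments. Fibroblasts are the classical source of the fibrillar types, whereas ES cells make little interstitial matrix.

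Expression is given as RPKM, a read density scaled to transcript length and to the size of the library. Genes that reached 1 RPKM in wild type, knockout or both of a cell type are called measured. Knockout to wild-type ratios are log2((knockout + 1)/(wild type + 1)), a scale that understates the change of low genes, and higher or lower means a change by a factor of 2 or above. These calls are by size alone. RPKM gives no read counts, so the depth behind each value is unknown. In bulk RNA, more cells of a type and more RNA per cell cannot be told apart. The 2 cell types were normalised in separate tables, so levels are compared within a table and only set side by side across them.

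Trim28 was at 1051 RPKM in ES3 wild type and 37.2 in ES3 knockout, and at 62.8 and 5.84 RPKM in MEFs, so both knockout libraries matched their labels. All 10 ES cell markers were at 1 RPKM or more in both ES3 libraries, and their summed level was 2641 RPKM in wild type and 1332 in knockout. In MEFs 13 of 15 fibroblast markers were at 1 RPKM or more in each library, and Pou5f1 was listed at 0 in both. Col4a1 and Col4a2, the main basement membrane chains, had log2 ratios of 5.97 and 6.07 in ES3 cells and -0.48 and -0.35 in MEFs.

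Promoter sequences are shown for 5 collagens that later results turn on, as the 250 bases before the RefSeq transcript start (build GRCm38.p6, + strand, 5' to 3'). Col5a1, Col11a1 and Col27a1 are fibrillar genes that were higher in ES3 knockout, and Col10a1 was lower in MEF knockout. Col1a2 is the fibrillar partner of Col1a1, which was higher in ES3 knockout. Col1a2 itself stayed under 1 RPKM in both ES3 libraries, so it was not called. Capitals mark a TATA box (TATAAA), a GC box (GGGCGG) or a CCAAT box (CCAAT), each searched on both strands. The windows are chr2:27886175-27886424, chr3:114030290-114030539, chr4:63215162-63215411, chr6:4505368-4505617 and chr10:34389731-34389980 in the order printed.
Col5a1: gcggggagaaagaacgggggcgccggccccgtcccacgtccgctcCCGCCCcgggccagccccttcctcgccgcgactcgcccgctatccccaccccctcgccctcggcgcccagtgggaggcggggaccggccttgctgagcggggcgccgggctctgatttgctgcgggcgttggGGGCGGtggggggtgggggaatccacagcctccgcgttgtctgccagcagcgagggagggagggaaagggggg
Col11a1: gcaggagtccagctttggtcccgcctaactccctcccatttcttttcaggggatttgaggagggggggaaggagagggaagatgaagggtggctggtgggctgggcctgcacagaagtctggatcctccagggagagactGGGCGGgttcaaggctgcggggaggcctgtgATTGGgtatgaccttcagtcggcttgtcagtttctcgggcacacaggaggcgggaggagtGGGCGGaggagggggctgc
Col27a1: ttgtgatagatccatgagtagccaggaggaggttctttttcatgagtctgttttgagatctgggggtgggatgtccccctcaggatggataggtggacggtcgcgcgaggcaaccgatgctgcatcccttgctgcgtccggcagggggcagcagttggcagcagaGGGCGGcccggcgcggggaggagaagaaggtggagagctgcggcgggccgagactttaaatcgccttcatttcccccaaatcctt
Col1a2: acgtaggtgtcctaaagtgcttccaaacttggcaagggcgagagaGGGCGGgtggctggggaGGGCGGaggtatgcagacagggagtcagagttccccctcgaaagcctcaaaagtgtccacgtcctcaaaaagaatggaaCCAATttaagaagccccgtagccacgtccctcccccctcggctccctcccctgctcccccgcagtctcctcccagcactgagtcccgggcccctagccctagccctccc
Col10a1: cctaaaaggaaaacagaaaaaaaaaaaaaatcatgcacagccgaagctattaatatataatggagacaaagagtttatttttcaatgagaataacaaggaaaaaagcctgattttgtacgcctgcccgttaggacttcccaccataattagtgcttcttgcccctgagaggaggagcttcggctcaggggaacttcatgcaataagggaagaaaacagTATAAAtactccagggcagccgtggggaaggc
The 4 fibrillar promoters held at least 1 GC box and no TATA box, and Col10a1 held a TATA box 32 bases before the start and no GC box. Over 32851 RefSeq promoter windows of the same length, 12.4% held a TATA box, 32.7% a GC box and 33.8% a CCAAT box. RefSeq had an entry for 31 of the 39 collagens, of which 5 held a TATA box, 19 a GC box and 11 a CCAAT box. A match is a run of letters and was not tested as a binding site.

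In wild-type ES3 cells collagen RNA was sparse and mostly of 1 gene. Col18a1, a multiplexin of basement membranes whose tail fragment is endostatin, was at 52.2 RPKM in wild type and 40.3 in knockout, which was 84.5% and 46.8% of the summed RPKM of the 39 genes. Only 4 members reached 1 RPKM in wild type, where the median over the 39 was 0.0725 RPKM. In the knockout 12 reached it and the median was 0.543 RPKM. The 39 genes together held 0.0194% of all RPKM in wild type and 0.0281% in knockout. Across all 17818 ES3 symbols, 60.7% were at 1 RPKM or more in wild type and 65.7% in knockout.

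Collagen RNA was abundant in MEFs. Col1a1, the major chain of type I collagen in skin and bone, was at 2037 RPKM in wild type and 1554 in knockout, where it ranked 8 and 15 of 17813 symbols. The next highest in both libraries were Col1a2, Col5a2 and Col5a1, all fibrillar. Collagens held 1.31% of all RPKM in MEF wild type and 0.837% in knockout, as sums of 4055 and 3093 RPKM. Set side by side, 31 of 39 collagens (79.5%) had the higher wild-type value in MEFs, against 39.9% of all shared symbols. The 31 include members too low to rank, since 16 of the 39 stayed under 1 RPKM in all 4 libraries. Col18a1, Col9a2 and Col9a3 were the members at 1 RPKM or more in ES3 wild type with a lower value in MEF wild type.

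**Figure D1:**
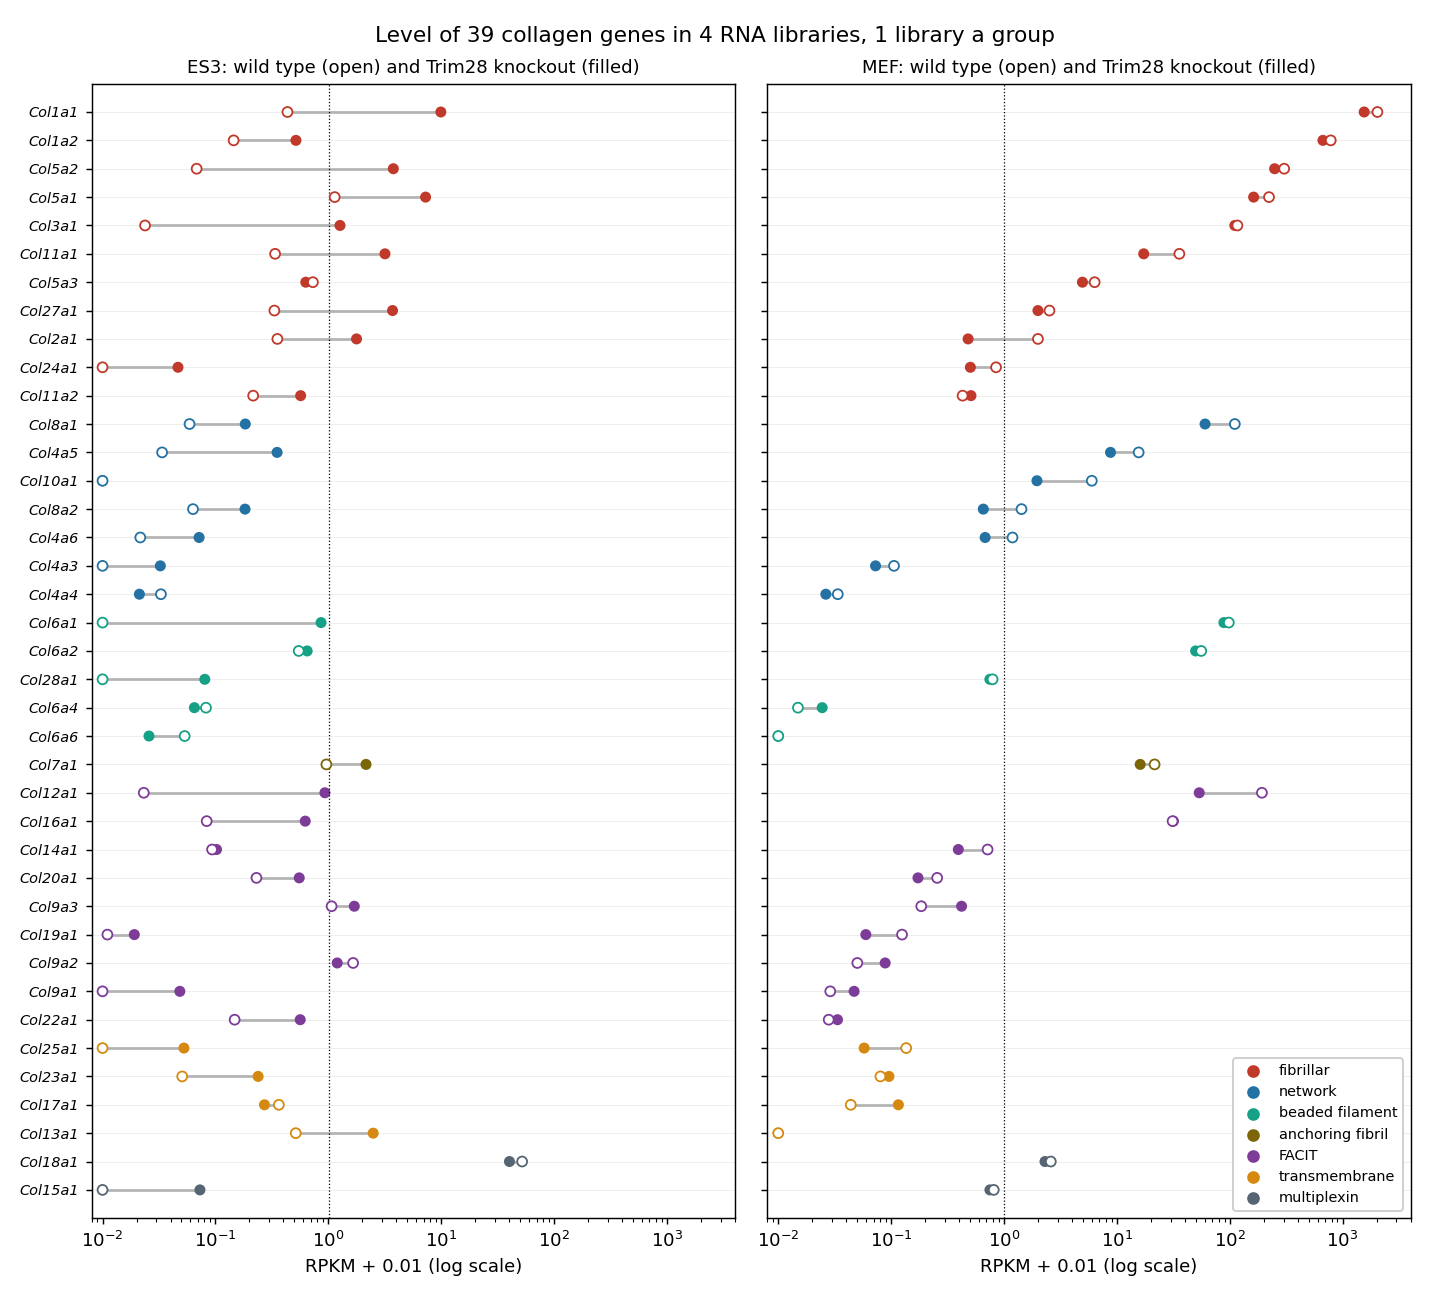
RPKM (log axis, with a small constant added so that values of 0 can be drawn) of the 39 collagen genes in wild type (open) and knockout (filled), 1 library a group, coloured by class, with a dotted line at 1 RPKM. In ES3 cells Col18a1 (52.2 RPKM in wild type, 40.3 in knockout) is the highest member in both libraries, and in MEFs it is Col1a1 (2037 and 1554).

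Of the 39 collagens, 12 were measured in ES3 cells, and 8 of those 12 were called higher in knockout and none lower. Over all genes 12.5% of those measured were called higher and 3.18% lower. Since 8 of the 12 passed the 1 RPKM filter through the knockout alone, they had to lean upward. Without any filter the count was 8 of 39 (20.5%) higher, against 8.46% of all symbols, and 0 lower, against 2.14%. Ratios were above 0 for 31 of the 39 and below 0 for 7, while 56.0% of all symbols were above 0. The median ratio of all 39 was 0.16, against 0.05 over all symbols.

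The higher genes were mainly fibrillar. Of 11 fibrillar members 7 were called higher, against 8.46% of all symbols without the filter. The other class with a higher call was the transmembrane one, with 1 of 4. All of these genes except Col5a1 passed the filter through the knockout alone and had to lean upward. After span centring 6 fibrillar members and 0 transmembrane ones remained higher. Col1a1 (NM_007742, chr11:94797538-94814356 in mm9) was at 0.425 RPKM in ES3 wild type and 9.93 in knockout, a log2 ratio of 2.94. It was the highest member on this scale, whereas with a pseudocount of 0.1 RPKM Col5a2 (4.61) was above Col1a1 (4.26). Col1a2, which supplies the partner chain of type I collagen, was at 0.135 and 0.507 RPKM and did not reach the filter. The quotient of Col1a1 over Col1a2 RPKM was 3.16 in ES3 wild type and 19.6 in knockout, against 2.59 and 2.32 in MEFs. The ES3 quotients rest on Col1a2 values under 1 RPKM, of unknown depth, so no change in the proportion of the type I pair was read from them.

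Type V collagen sets the diameter of type I fibrils. Its chain genes Col5a1 and Col5a2 were both called higher in ES3 knockout. Col5a1 (NM_015734, chr2:27741945-27895034) was at 1.13 RPKM in wild type and 7.27 in knockout, a log2 ratio of 1.96, and was the 1 higher member that had passed the filter in both libraries. Col5a2 (NM_007737, chr1:45431166-45560127) was at 0.0582 and 3.76 RPKM, a log2 ratio of 2.17. The remaining type V chain, Col5a3, was at 0.721 and 0.622 RPKM and stayed under the filter. Within the pair, the quotient of Col5a1 over Col5a2 was 19.3 in wild type and 1.93 in knockout, and in MEFs it was 0.733 and 0.652. The ES3 wild-type quotient rests on Col5a2 at 0.0582 RPKM, of unknown depth. No change in the proportion of this pair was read from it.

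Col5a2 lies next to Col3a1 on chromosome 1, with the 3' ends 24.6 kb apart (mm9). Col3a1, the fibrillar chain of extensible tissues such as vessel walls, was at 0.0138 RPKM in ES3 wild type and 1.26 in knockout. Its log2 ratio was 1.16, and it was the lowest member inside the filter. Both neighbours were thus close to 0 in wild type and above 1 RPKM in knockout.

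Cartilage fibril genes formed the rest of the higher fibrillar set. Col2a1, the chain of type II collagen, was at 0.344 RPKM in wild type and 1.77 in knockout, with a log2 ratio of 1.04 that was the nearest to the 2-fold threshold from inside. Col11a1, which nucleates type II fibrils, was at 0.328 and 3.17 RPKM, a log2 ratio of 1.65. Its partner Col11a2 was at 0.206 and 0.559 RPKM, so neither library reached the filter. Col27a1, a fibrillar collagen of developing cartilage, was at 0.323 and 3.70 RPKM, a log2 ratio of 1.83. The summed level of 11 chondrocyte and bone markers was 3.88 RPKM in ES3 wild type and 9.79 in knockout, with 2 of the 11 at 1 RPKM or more in each. Of 3 measured, 1 was called higher, Matn1 (1.46 and 6.07 RPKM), against 12.5% of all measured genes. The median log2 ratio of all 11 was 0.06. The part of such cells in these values was not tested.

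Outside the fibrillar class, Col13a1, a transmembrane collagen of adhesion sites and the neuromuscular junction, was at 0.505 RPKM in ES3 wild type and 2.49 in knockout, a log2 ratio of 1.22. The transmembrane members Col17a1, Col23a1 and Col25a1 stayed under 1 RPKM in both libraries. Col7a1, which builds the anchoring fibrils under epithelia, was at 0.952 and 2.15 RPKM, and its ratio of 0.69 was the nearest to 2-fold from outside. Col9a3 was at 1.06 and 1.69 RPKM (0.39), Col9a2 at 1.65 and 1.19 (-0.28), and Col18a1 had a ratio of -0.37. None of the 7 network members was measured in ES3 cells, where their highest value was 0.342 RPKM, for Col4a5 in knockout.

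Col12a1 and Col6a1 just missed the filter in knockout. Col12a1, a FACIT that bridges fibrils, was at 0.0132 RPKM in wild type and 0.924 in knockout, the highest value left outside. Col6a1, a chain of the beaded filaments of type VI collagen, had a listed value of 0 in wild type and 0.853 RPKM in knockout, while its partner Col6a2 was at 0.537 and 0.640. Of the 9 members at 50 RPKM or more in MEF wild type, 1 reached 1 RPKM in ES3 wild type and 4 did so in ES3 knockout. The ES3 knockout values remained low beside those of MEFs, with 6 of the 8 higher members at a larger RPKM in MEF wild type.

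Markers of other cell types moved in the same libraries. The summed level of 15 fibroblast markers was 8.66 RPKM in ES3 wild type, with 4 at 1 RPKM or more and Twist2 and Tcf21 at 0, and 27.5 in knockout, with 9 at 1 RPKM or more. Of 9 measured, 2 were called higher, Twist2 (0 and 1.03 RPKM) and Pdgfra (0.146 and 8.63), and Pdgfra is also on the endoderm list. Both passed the filter through the knockout alone and had to lean upward. Over all measured ES3 genes 12.5% were called higher. For 13 markers of parietal and primitive endoderm, cells that lay down a basement membrane, the sum was 226 RPKM in wild type and 1247 in knockout, and 12 of the 13 were called higher. Only 6 of the 13 were at 1 RPKM or more in wild type. The rest passed the filter through the knockout alone and had to lean upward. Smooth muscle markers summed to 21.4 and 162 RPKM over 7 genes, of which Tagln alone was 1.02 and 100.1. Of 5 measured smooth muscle markers, 3 were called higher, among them Cnn1 (0.775 and 4.33 RPKM), which passed the filter through the knockout alone. Whether such cells account for the collagen RNA was not tested.

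**Figure D2:**
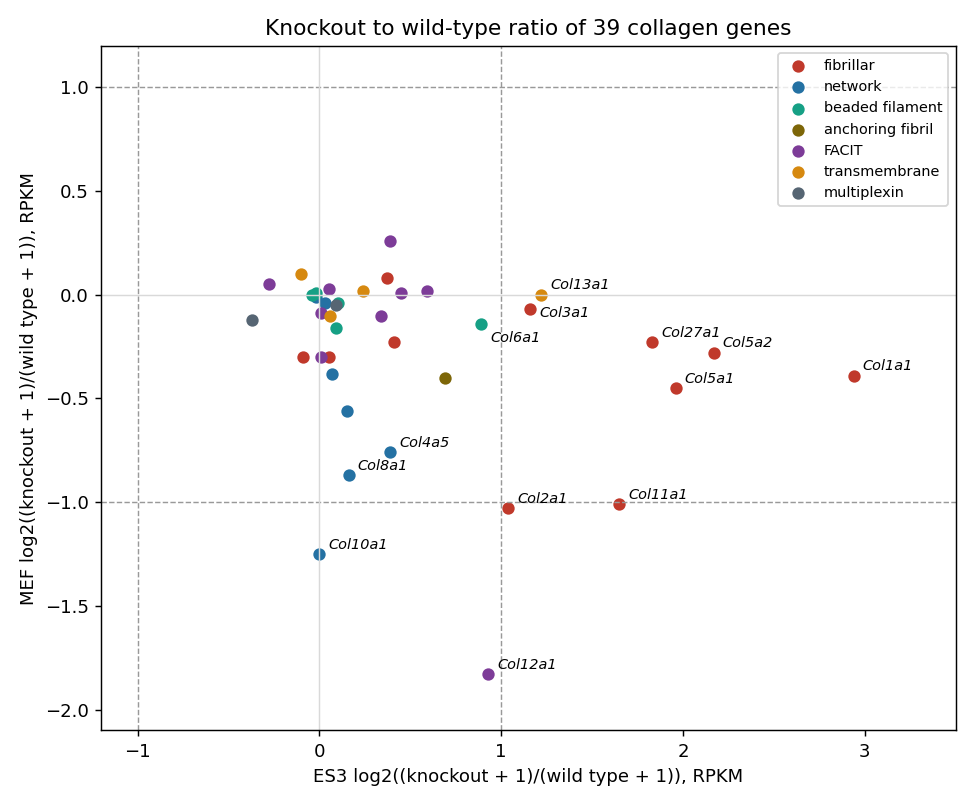
log2 ratio of knockout to wild type (pseudocount 1 RPKM) of the 39 collagen genes in MEFs (vertical axis) against ES3 cells (horizontal axis), 1 point a gene, coloured by class, 1 library a group, dashed lines at 2-fold. Col1a1 (2.94) lies farthest right, Col12a1 (-1.83) lowest, and Col2a1 and Col11a1 past both lines.

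In MEFs 20 of the 39 collagens were measured, of which 4 were called lower in knockout and none higher. Of all measured MEF genes 4.84% were called lower and 0.981% higher. Without the filter this was 4 of 39 (10.3%) lower and 0 higher, against 2.94% and 0.595% of all symbols. The measured members Col2a1, Col4a6 and Col8a2 passed the filter through wild type alone and had to lean downward. Of the 20, 19 had a ratio below 0, against 49.7% of all measured genes, and the exception was Col16a1 at 0.02. After centring the ratios within bins of gene span, 14 of the 20 were below 0 and 6 above. The median of the 20 was -0.39, while that of all measured genes was 0.00.

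Col12a1 (NM_007730, chr9:79446798-79566638), the FACIT of tendon and muscle matrix, was at 193 RPKM in MEF wild type and 53.7 in knockout, which is 27.8% of wild type. Its log2 ratio of -1.83 was the lowest on this scale. With a pseudocount of 0.1 RPKM Col2a1 (-1.87) was below Col12a1 (-1.84), and after span centring Col10a1 was the lowest. Col10a1 (NM_009925, chr10:34109641-34118110), a network collagen made by hypertrophic chondrocytes, was at 5.99 and 1.95 RPKM, 32.5% of wild type and a log2 ratio of -1.25. It has the shortest span of any member at 8.47 kb. The cartilage fibril genes Col2a1 (1.99 and 0.471 RPKM, -1.03) and Col11a1 (35.8 and 17.3 RPKM, -1.01) made up the remaining calls, and Col11a1 was the nearest to the threshold from inside.

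The 5 measured network collagens were all below 0 in MEFs, as were 19 of the 20 measured collagens. Col4a6 and Col8a2 had passed the filter through wild type alone, and Col8a1, Col4a5 and Col4a6 span 130 kb or more, where 82.0% of all measured genes were below 0. After span centring Col8a1 was at -0.42, Col4a5 at -0.30 and Col4a6 at 0.08. Col8a1, a chain of the hexagonal lattices of vessel walls and cornea, was at 111 RPKM in wild type and 60.5 in knockout, and its ratio of -0.87 was the nearest to 2-fold from outside. Its partner Col8a2 was at 1.42 and 0.646 RPKM (-0.56). Col4a5, a minor basement membrane chain mutated in Alport syndrome, was at 15.6 and 8.78 RPKM (-0.76), and Col4a6, which starts 1.31 kb away from it on the opposite strand of the X chromosome, was at 1.18 and 0.671 (-0.38). The quotient of Col4a5 over Col4a6 was 13.2 in wild type and 13.1 in knockout. It rests on Col4a6 values near or under 1 RPKM, of unknown depth. Whether this divergent pair kept its proportion was therefore not read from it.

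The abundant fibrillar chains stayed within 2-fold in MEFs. Col1a1 had a ratio of -0.39 (-0.46 after span centring), and Col1a2, at 786 and 670.3 RPKM, of -0.23. Col5a1 was at 223 and 163 RPKM (-0.45), and Col5a2 at 304 and 250.1 (-0.28). Col3a1 was almost level at 117 and 111 RPKM (-0.07). After span centring Col3a1 was at 0.12 and its neighbour Col5a2 at 0.17. In type VI collagen, which forms filaments around cells, Col6a1 was at 98.2 and 88.8 RPKM and Col6a2 at 55.9 and 49.9, and their quotient was 1.76 in wild type and 1.78 in knockout. Col16a1, a FACIT, was at 31.2 and 31.7 RPKM. Col7a1 was at 21.6 and 16.1 RPKM, Col5a3 at 6.35 and 4.95, Col18a1 at 2.59 and 2.30 and Col27a1 at 2.52 and 1.99. Each of these was within 2-fold of its wild-type value. In the type XI pair the quotient of Col11a1 over Col11a2 was 85.3 in wild type and 34.6 in knockout, with Col11a2 at 0.420 and 0.500 RPKM, under the filter. No transmembrane member was measured in MEFs, where Col13a1 was listed at 0 in both libraries. The 15 fibroblast markers summed to 2184 RPKM in MEF wild type and 3020.0 in knockout, of which S100a4 alone was 945 and 1718. Their median log2 ratio was 0.04, with 1 of 13 measured called higher, Twist2 (54.0 and 129 RPKM, 1.24), and 0 lower. Over all measured MEF genes 0.981% were called higher and 4.84% lower. The others lay on both sides of 0, such as Pdgfrb (-0.62), Prrx1 (-0.66) and Fbln2 (-0.48) below and S100a4 (0.86), Mfap5 (0.59) and Prrx2 (0.35) above.

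Gene span, the distance from the first to the last base of the transcript in mm9, went with the MEF ratios. Collagen genes are long, with a median of 107 kb over the 39 members against 19.8 kb over all symbols, from Col10a1 at 8.47 kb to Col25a1 at 419 kb (chr3:129883809-130302795). Col25a1, a transmembrane collagen of neurons, was at no more than 0.126 RPKM in any of the 4 libraries. Across all 10805 measured MEF genes the Spearman correlation of span with ratio was -0.543, and across the 20 measured collagens it was -0.105. In ES3 cells it was 0.074 over 12024 genes and 0.406 over 12 collagens. Genes are not independent replicates, and all points of a table share the same 2 libraries.

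The short collagens did not share the higher ratios of other short genes in MEFs. Among the 10 measured members under 50 kb, all 10 ratios were below 0 with a median of -0.35, while 39.6% of all measured genes under 50 kb were below 0 and their median was 0.12. Of the 10, Col2a1 and Col8a2 had passed the filter through wild type alone and had to be below 0. With span centring 9 of the 10 were below 0, with a median of -0.22. From 50 to 130 kb the collagen median was -0.23 over 5 members and that of all genes -0.40. At 130 kb or more it was -0.76 over 5 members and -0.47 over all genes. After centring within 20 bins of span, the collagen median in MEFs was -0.17, and 2 members remained at 2-fold lower, and none higher, against 2.65% and 0.805% of all measured genes. These were Col10a1 at -1.54 and Col12a1 at -1.38, whereas Col2a1 went to -0.85 and Col11a1 to -0.54. In ES3 cells 6 members remained higher and none lower after the same centring, against 10.7% and 3.93% of all measured genes, and Col2a1 (0.95) and Col13a1 (0.99) went just under.

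**Figure D3:**
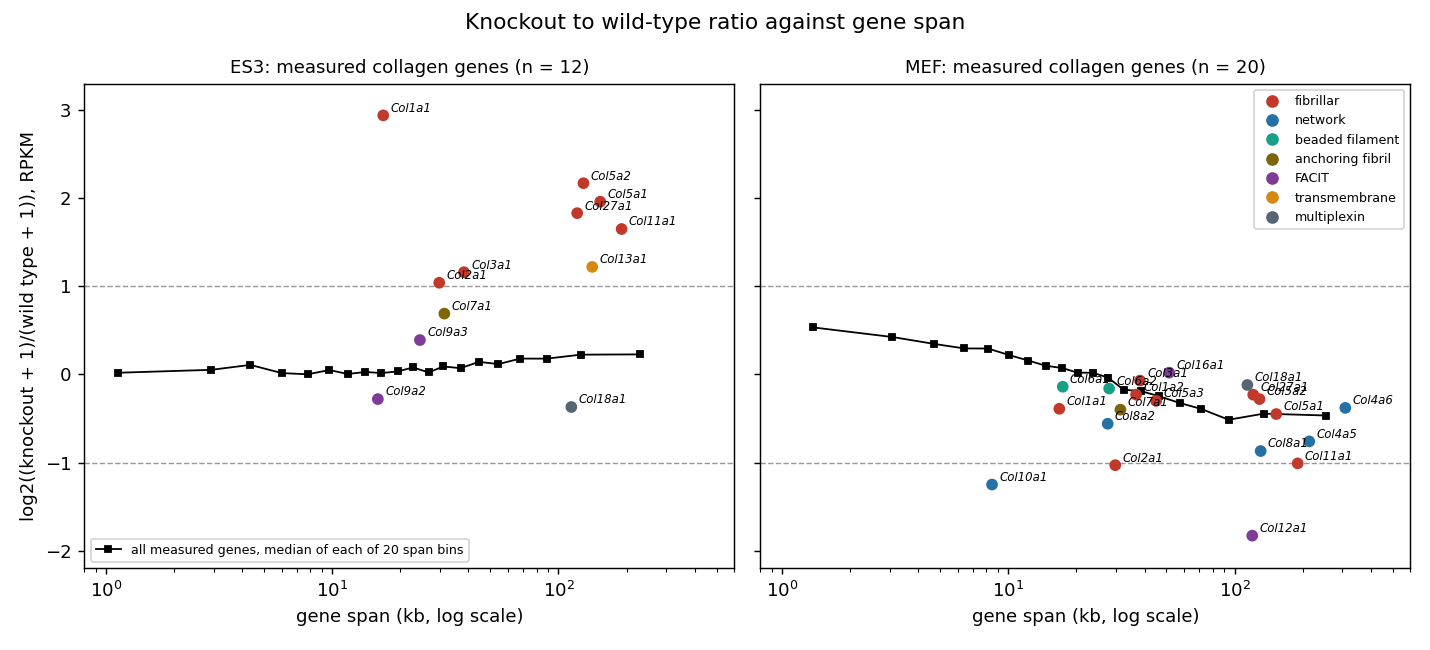
log2 ratio of knockout to wild type against gene span in kb (log axis) for measured collagens, 12 in ES3 cells and 20 in MEFs, with the median of all measured genes in each of 20 span bins as a line. In MEFs the line descends with span, and Col10a1 (8.47 kb, -1.25) and Col12a1 (-1.83) lie below it.

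A total of 16 collagens stayed under 1 RPKM in all 4 libraries, with highest values from 0.0237 RPKM for Col4a4 to 0.841 for Col24a1. They were the network members Col4a3 and Col4a4, whose starts are 71 bases apart, the beaded filament members Col6a4, Col6a6 and Col28a1, the FACITs Col9a1, Col14a1, Col19a1, Col20a1 and Col22a1, the fibrillar Col11a2 and Col24a1, the transmembrane Col17a1, Col23a1 and Col25a1, and the multiplexin Col15a1. For these genes the values are too low to rank or to give a ratio that can be read.

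Collagen chains need dedicated enzymes and carriers, and 6 lists of such genes, 79 symbols in all, were set beside them. In ES3 cells 32 of the 56 measured list genes were called higher in knockout and none lower (57.1% against 12.5% of all measured genes). Without the filter that was 32 of 79 (40.5%), against 8.46%, and of the 41 already at 1 RPKM or more in wild type 20 were called higher. The share over all symbols at 1 RPKM or more in wild type was not computed. Such counts, here and for the single lists below, therefore have no matching background. Hydroxylases and chaperones of the endoplasmic reticulum made up 9 of these calls among 16 measured, and 8 of the 14 already at 1 RPKM or more in wild type. Serpinh1, the collagen-specific chaperone HSP47, was at 6.82 RPKM in ES3 wild type and 177 in knockout, a log2 ratio of 4.51. The prolyl hydroxylase subunit P4ha2 was at 2.28 and 41.8 RPKM (3.70) and P4ha1 at 3.70 and 30.7 (2.76). The lysyl hydroxylase Plod2 was at 4.00 and 36.2 RPKM (2.90), and the prolyl 3-hydroxylase Leprel1 at 0.206 and 4.93 (2.30).

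Export genes were called higher for 3 of 8 measured, and for 2 of the 7 that reached 1 RPKM in wild type. They were the secretory pathway transcription factors Creb3l2 (0.685 and 15.2 RPKM) and Creb3l1 (2.97 and 28.6), and the coat protein Sec24d (8.37 and 18.5). For trimming and cross-linking the count was 4 of 11 measured and 28.6% of the whole list, but 1 of the 7 that reached 1 RPKM in wild type, since Lox, Bmp1 and Mep1b passed through the knockout alone. It covered the cross-linking oxidases Loxl2 (1.72 and 25.5 RPKM) and Lox (0.0214 and 2.29) and the procollagen proteases Bmp1 (0.360 and 10.7) and Mep1b (0.876 and 17.1). The trimming enhancers went the other way without reaching 2-fold, Pcolce at 122 and 77.5 RPKM (-0.65) and Pcolce2 at 11.5 and 6.04 (-0.83).

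Of 10 receptors 3 were measured, and these were called higher (30.0% of the list), namely the integrin subunit Itgb1 (26.8 and 91.0 RPKM), the receptor kinase Ddr1 (7.78 and 22.7) and the uptake receptor Mrc2 (0.480 and 1.99). Mrc2 passed the filter through the knockout alone and was at 0.90, under 2-fold, after span centring. Degradation genes gave 7 of 10 measured, and 5 of the 7 that reached 1 RPKM in wild type, among them the proteases Mmp14 (4.31 and 23.3 RPKM), Mmp15 (1.24 and 10.2) and Ctsl (75.9 and 381) and the protease inhibitors Timp3 (0.566 and 9.30) and Timp2 (0.466 and 6.31). Genes for both breakdown and its inhibition were therefore in the higher set. Of 8 measured fibril-associated proteins 6 were higher (37.5% of the list), and 2 of the 4 that reached 1 RPKM in wild type. They were Fbn1 (0.717 and 2.51 RPKM), Thbs1 (0.279 and 21.9 RPKM), the collagen-binding Sparc (42.1 and 544), the proteoglycan Bgn (0.103 and 9.86), Aebp1 (1.10 and 14.8) and Comp (0.220 and 1.97). The other two, Tgfbi (7.22 and 3.27 RPKM, -0.94) and Fn1 (177 and 142, -0.32), were lower without reaching 2-fold. Many of these enzymes also act on basement membrane chains, and Col4a1 and Col4a2 were higher in the same library.

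In MEFs the same lists looked different. None of 66 measured genes was called higher, and 8 were lower (12.1%, against 4.84% of all measured genes). None of the 16 measured folding genes reached 2-fold, and Serpinh1 was at 330.2 RPKM in wild type and 349.9 in knockout (0.08). The lower genes were mostly fibril-associated proteins, 5 of 13 measured. Those were Ogn (9.97 and 2.22 RPKM, -1.77), Postn (421 and 142, -1.56), Fbn1 (78.3 and 26.7, -1.52), Fn1 (1711 and 613, -1.48) and Thbs1 (1644 and 710.4, -1.21). The collagen receptors Itga11 (56.9 and 20.3 RPKM, -1.44) and Ddr2 (28.2 and 13.5, -1.01) and the procollagen protease Tll1 (62.2 and 17.8, -1.75) completed the set. After span centring Itga11 and Ddr2 were at -0.93 and -0.56, under 2-fold, and 7 list genes were lower in all. The enzyme Lox, at 524 and 269.9 RPKM, had a ratio of -0.95 that went to -1.17.

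**Figure D4:**
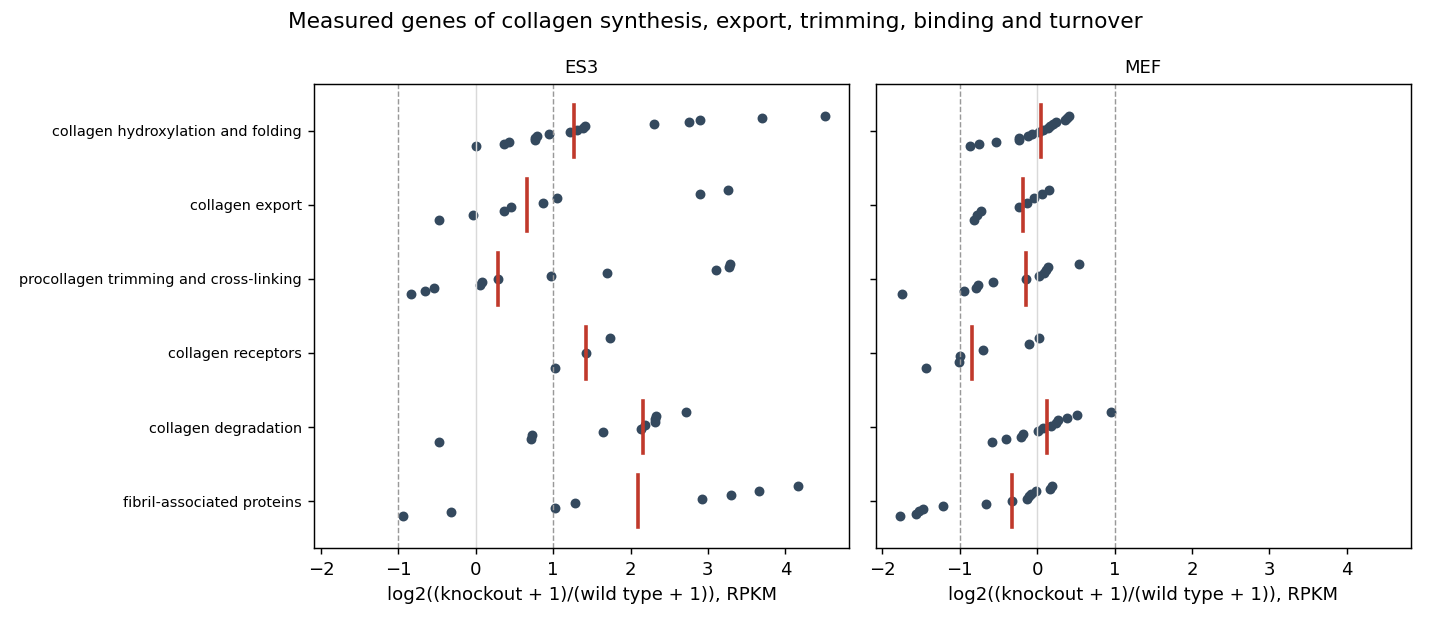
log2 ratio of knockout to wild type for measured genes of the 6 lists around collagen biosynthesis, in ES3 cells (56 genes) and MEFs (66 genes), 1 library a group, 1 point a gene, with a red bar at the median of each list and dashed lines at 2-fold. In ES3 cells 32 points lie at or beyond the 2-fold line on the higher side and none beyond the lower one, and in MEFs 8 lie beyond the lower line.

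Chromatin was assayed in ES3 cells only, by immunoprecipitation of H3K9me3, the histone mark deposited downstream of TRIM28, and of TRIM28 itself. The labels state that the mark was reduced but still present at this time after Cre. A collagen was counted as having a region when one lay in the gene body or within 20 kb of the start. In wild type 16 of 39 collagens (41.0%) had an H3K9me3 region, against 31.7% of all symbols. Collagen genes are long, and of the 21 members spanning 100 kb or more, 57.1% had a region against 59.9% of all symbols of that span. Regions listed in wild type only were at 12 members (30.8%, against 23.2%) and knockout regions at 20 (51.3%, against 32.0%). At spans of 100 kb or more these shares were 42.9% against 47.8% for wild-type-only regions and 71.4% against 64.1% for knockout regions.

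Among the 8 collagens called higher in ES3 knockout, Col2a1, Col5a2, Col11a1 and Col13a1 had a wild-type H3K9me3 region. This was 4 of 8, against 41.0% of the 39 collagens and 31.7% of all symbols. Col5a2, Col11a1 and Col13a1 span 100 kb or more, where 59.9% of all symbols had a region. At Col2a1 a 267 bp region in the wild-type-only list (chr15:97836231-97836497, mm9) was centred 1.24 kb upstream of the start. At Col13a1 such a region of 651 bp (chr10:61444213-61444863) lay 2.68 kb upstream. Col13a1 also had a gene-body region 116 kb from the start that was not in the wild-type-only list. The Col5a2 region (chr1:45485870-45486464) was in the gene body, 74.0 kb from the start. The region at Col11a1 (chr3:113723267-113724641), 9.50 kb upstream, was not in the wild-type-only list. Col1a1, Col3a1, Col5a1 and Col27a1 had none.

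Wild-type-only regions within 10 kb of the start were found at 4 members, Col2a1, Col13a1, Col16a1 and Col23a1. Of these, 2 were called higher, and Col16a1 (0.0737 and 0.615 RPKM) and Col23a1 (0.0408 and 0.229) stayed under the filter. Over all 1558 symbols with such a region 10.8% were called higher. The remaining members with a wild-type H3K9me3 region were Col4a3, Col4a4, Col4a5, Col4a6, Col6a6, Col8a1, Col11a2, Col19a1, Col24a1 and Col28a1, and none of them reached 1 RPKM in either ES3 library.

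TRIM28 peaks over input in wild type were at 5 members (12.8%, against 10.5% of all symbols), namely Col6a6, Col8a2, Col9a2, Col19a1 and Col23a1. None of the 8 higher collagens was among them. Peaks of wild type over knockout were at Col19a1 and Col25a1 (5.13%, against 7.80%). Peaks called in knockout over its input were at Col8a1, Col9a3, Col23a1 and Col27a1 (10.3%, against 7.60%). At spans of 100 kb or more all 3 shares were below those of all symbols of that length, at 9.52% against 23.1% for wild type over input, 9.52% against 18.2% for wild type over knockout and 14.3% against 17.9% for knockout over input. Col19a1, a FACIT, was the member with a peak in both wild-type comparisons. Its RNA was at 0.00104 RPKM in ES3 wild type and 0.00912 in knockout, too low to read a change.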

How the data were processed

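Per the labels' protocols, duplicates were pooled before RNA extraction. Bowtie and the mm9 build are named per the submitters' processing notes. The sources used here do not name the read counter, region caller or versions, although TRIM28 peak names have the form that MACS writes. The authors deposited RPKM in 1 table for ES cells and 1 for MEFs (17818 and 17813 symbols), and a ratio per transcript that equalled the quotient of the RPKM columns and was not used further. The ES table names only WT and KO, and was read as ES3 because no other ES pair carries those labels. The deposited TRIM28 peak lists hold a score of unstated scale, and the H3K9me3 lists hold positions only.

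Where a symbol had several transcripts, that with the highest mean RPKM represented it. Ratios were log2((knockout + 1)/(wild type + 1)), and span centring subtracted the median of each of 20 span bins. Among genes under 0.5 RPKM the commonest quotient of the libraries was shared by 39 of 3541 ES3 rows and 234 of 4606 MEF rows, so relative depth was not derived. The steps were tested on simulated data. Python 3.11.15, pandas 2.3.3, numpy 2.4.6, scipy 1.17.1 and matplotlib 3.10.9 were used. RefSeq tables of GRCm38.p6 gave names and promoters.

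The members and all lists were chosen with earlier results of these data known. Values are printed for members 2-fold either way, the 10 highest of a table, chains of types I, V, VI and XI and the extremes of span, and for up to 5 measured genes of each pathway list with the largest ratio. The span limits of 50 and 130 kb, the 50 RPKM limit, the promoters shown, the chains of types IV and VIII, Col16a1, Col24a1, Pcolce, Pcolce2, the ES3 values of Tgfbi, Fn1 and Fbn1, the MEF values of Serpinh1 and single marker genes were chosen after values were seen. The lists of 7 cell types and 6 pathways were counted whole. Endothelial markers (7) summed to 21.8 and 36.8 RPKM in ES3 and 24.3 and 15.2 in MEFs, and keratinocyte and epithelium markers (7) to 179.7 and 642, and 4.63 and 5.96. In MEFs chondrocyte and bone markers summed to 8.06 and 6.20, smooth muscle to 8153 and 11871, endoderm to 379 and 223, and ES cell markers to 39.2 and 30.1. Rex1GFP, H3K27ac and input libraries were not analysed here.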

Additional observations from a re-analysis of the deposited data

Results flagged for a closer look

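Col2a1 and Col11a1, both chains of cartilage fibrils, were called higher in ES3 knockout and lower in MEF knockout. The ES3 ratio minus the MEF ratio was 2.07 for Col2a1 and 2.66 for Col11a1 on the log2 scale. The difference was not tested, since each group is 1 library. Of 9 collagens measured in both cell types these 2 were called higher in ES3 and lower in MEFs, against 61 of 9932 symbols (0.614%). Each passed the ES3 filter through the knockout alone. Col2a1 also passed the MEF filter through wild type alone, so its ratios had to lean opposite ways. After span centring both MEF values were under 2-fold (-0.85 and -0.54), as was Col2a1 in ES3 cells (0.95).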

How the results depend on the processing

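No paired analysis was possible because each group holds 1 library, and no replicate could be left out. Of 118 values recomputed under other settings, 84 kept their direction and stayed close, 32 moved and 2 reversed. Close means within 1.5 times for a count, and equal when rounded to 2 decimals for a median or correlation, which has no error here. For single members 68 of 88 kept their call, 20 lost it and 0 reversed. The cause of these shifts was not tested.

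Collagens called higher in ES3 knockout went from 8 to 2 with a pseudocount of 5 RPKM, 2 with a filter at 5 RPKM and 5 at 3-fold. Collagens lower in MEF knockout went from 4 to 1 with a pseudocount of 5, 2 with span centring and 1 at 3-fold. Pathway genes lower in ES3 knockout went from 0 to 1 with a pseudocount of 0.1 or median centring and to 2 with span centring. Those lower in MEFs went from 8 to 2 at 3-fold. The ES3 collagen median of 1.19 over measured members was 2.35 and 0.39 with pseudocounts of 0.1 and 5, 0.16 with no filter and 1.96 with a filter at 5 RPKM. It was 1.11 with median centring, 1.04 with span centring, 1.10 over all transcripts and 1.22 with the filter on the mean of both libraries, which was chosen after seeing the data. The MEF median of -0.39 was -0.41 and -0.25 with pseudocounts of 0.1 and 5, -0.12 with no filter and -0.17 with span centring.

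The correlation of span and ratio over ES3 collagens, 0.406, was 0.364 with a pseudocount of 0.1 and reversed to -0.046 with no filter and to -0.500 with a filter at 5 RPKM, which left 3 genes. That in MEFs, -0.105, was -0.135 and -0.134 with pseudocounts of 0.1 and 5, -0.047 with no filter and -0.307 with a filter at 5 RPKM. Collagens with a TRIM28 peak over input in wild type went from 5 to 3 within 10 kb, 2 in the gene body only and 3 with scores above the list median. With such scores those over knockout went from 2 to 1, and those in knockout from 4 to 1. Most ES3 calls rest on wild-type values under 1 RPKM of unknown depth.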

Other observations

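The chain genes of type IX collagen, a FACIT of cartilage, had different levels in the ES3 libraries, where Col9a2 and Col9a3 were above 1 RPKM and Col9a1 had 0 in wild type and 0.0384 RPKM in knockout. In MEFs Col9a1 (0.0189 and 0.0370 RPKM) and Col9a2 (0.0402 and 0.0786) had the same quotient of knockout over wild type, 1.95. Values this low can rest on very few reads.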
